A study of Mus musculus with 6 samples.

Results

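Rab11fip1, Ramp3, Lmo4, Ell2 and Upp1 are 5 genes of unrelated function whose RNA was more abundant in colonic macrophages (MΦs) without the interleukin-10 receptor β chain than in MΦs that carried it. They were picked from 14097 genes in the expression table because their measured level in Il10rb-/- MΦs exceeded that in Il10rb+/- MΦs at each age, so the genotype difference described here is the reason for their choice and is not a finding. All 5 were found in the table, each in 1 entry. All 5 reached 50 normalized counts, the minimum used for the comparisons, in at least 1 Il10rb+/- library, so none passed only through the group where it was high.

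The study asked how loss of this receptor chain changes MΦs of the colonic lamina propria, the connective tissue under the gut epithelium, before and after weaning. RNA was sequenced from MΦs sorted as CD45+CD11b+CD11cintCD103-CD64+Ly6C-MHCII+ from untreated mice of the 129SvEv strain at 1, 3 and 12 weeks of age. At each age there was 1 library from Il10rb-/- mice, which lack the gene in every cell and not in MΦs alone, and 1 from Il10rb+/- mice, which keep 1 intact copy and served as controls. A library held the cells of 1 mouse at 3 and 12 weeks and of several pooled mice at 1 week, so age and pooling cannot be told apart between 1 week and the later ages, and no group had replicate libraries.

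Interleukin-10 is the main cytokine that restrains MΦs in the gut, and it acts through a receptor of an α and a β chain that activates the transcription factor STAT3. The β chain also serves the receptors for interleukin-22 and for type III interferons. Rab11fip1 encodes an adaptor that binds Rab11 on recycling endosomes and helps return internalized receptors to the cell surface. Ramp3 encodes a membrane protein that escorts the calcitonin receptor-like receptor to the surface and gives it affinity for the peptide adrenomedullin. Lmo4 encodes a small protein made of LIM domains, which has no DNA contact of its own and joins transcription factors to cofactors such as Ldb1. Ell2 encodes an elongation factor of RNA polymerase II that works in the super elongation complex and is best known from plasma cells, where it favours the secreted form of immunoglobulin heavy chain. Upp1 encodes uridine phosphorylase, which splits uridine into uracil and ribose 1-phosphate, a sugar that cells can salvage or use as fuel.

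On the mouse assembly GRCm38 (GENCODE annotation), Rab11fip1 (ENSMUSG00000031488) lies at chr8:27138773-27174646 on the minus strand, Ramp3 (ENSMUSG00000041046) at chr11:6658521-6677475 on the plus strand, and Lmo4 (ENSMUSG00000028266) at chr3:144188530-144205220 on the minus strand. Ell2 (ENSMUSG00000001542) lies at chr13:75706757-75772364 and Upp1 (ENSMUSG00000020407) at chr11:9118103-9136170, both on the plus strand. Exons of 3 of the genes overlap exons of other annotated genes. Ramp3 shares 7.32% of its exon bases with the pseudogene Gm11978 on the opposite strand, and Rab11fip1 shares 452 bases with the antisense transcript 4933416M07Rik. Ell2 shares 94 with the antisense transcript 1700037F03Rik and 130 with the small nucleolar RNA gene Gm23127 on its own strand. The strand setting of the read counting is not given in the sources used here, so reads from these stretches could not be assigned to 1 gene with certainty, although the Ramp3 share was the largest.

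The stretch just before the start of a gene holds much of its promoter, and the RefSeq promoter table (GRCm38.p6) gave it for 4 of the 5 genes, all but Rab11fip1. The sequences of Ramp3, Lmo4 and Upp1 are shown so that the letters shared by genes with alike profiles can be seen. Each line is the 250 bases before the RefSeq start, read on the strand of the gene, less 12 bases of Ramp3 that GENCODE places in an exon. Capitals mark matches to the searched motifs, which in Ramp3 and Lmo4 are GC boxes on either strand, and in Upp1 are 1 GC box followed by 1 AP-1 site. They come from chr11:6658283-6658520 (plus strand, Ramp3), chr3:144205256-144205505 (minus strand, Lmo4) and chr11:9117853-9118102 (plus strand, Upp1).
Ramp3: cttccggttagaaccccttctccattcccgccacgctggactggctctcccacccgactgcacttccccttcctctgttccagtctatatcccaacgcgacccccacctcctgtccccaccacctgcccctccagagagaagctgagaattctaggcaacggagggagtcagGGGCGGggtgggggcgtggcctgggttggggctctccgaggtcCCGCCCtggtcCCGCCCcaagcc
Lmo4: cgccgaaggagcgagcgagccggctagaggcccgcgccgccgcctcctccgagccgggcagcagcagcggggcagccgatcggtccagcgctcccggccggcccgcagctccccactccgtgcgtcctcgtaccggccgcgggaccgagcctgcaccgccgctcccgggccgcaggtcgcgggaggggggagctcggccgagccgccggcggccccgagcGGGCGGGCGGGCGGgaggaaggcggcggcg
Upp1: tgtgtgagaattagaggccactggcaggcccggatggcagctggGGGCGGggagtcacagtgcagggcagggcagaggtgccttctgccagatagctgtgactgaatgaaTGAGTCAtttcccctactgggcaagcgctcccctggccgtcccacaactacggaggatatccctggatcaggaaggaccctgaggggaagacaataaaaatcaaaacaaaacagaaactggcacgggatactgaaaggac

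The window of Ell2 (chr13:75707234-75707483, plus strand) lay wholly inside GENCODE exons annotated on the same strand and is not printed. A total of 7 motifs was searched on both strands: the TATA box (TATAAA), the CCAAT box (CCAAT), the GC box (GGGCGG), the cyclic AMP response element (TGACGTCA), the AP-1 site (TGANTCA), the κB site (GGANTTTCC) and the STAT site (TTCNNNGAA). Matches of different motifs did not overlap in these windows, while the 3 GC boxes of Lmo4 overlap each other. The GC box, bound by Sp1-type factors, was present in 4 of 4 windows, against 32.7% of all 32851 mouse windows of the same 250 bases. The windows were rich in G and C, at 82.4% in Lmo4, 65.2% in Ramp3, 61.2% in Ell2 and 55.6% in Upp1, against a median of 52.4%. The Ell2 window held the letters of the cyclic AMP response element at positions -198 to -191 from the start, which 1.55% of all windows hold, and 3 copies of the CCAAT box, which 33.8% hold at least once. The Upp1 window held the letters of the AP-1 site at positions -140 to -134, present in 6.75% of all windows. None of the 4 windows held the TATA box (12.4% of all windows), the κB site (1.07%) or the STAT site (7.02%). These are matches of letters in 1 short window a gene, not measured binding.

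The libraries held between 6700337 reads (3-week Il10rb+/-) and 40754971 reads (12-week Il10rb+/-) on listed genes. Values are counts divided by a size factor of each library, here called normalized counts, and 1 read was worth between 0.473 and 2.43 of them. The targeted gene checked the labels: Il10rb had 1231, 386 and 2341 reads in the Il10rb+/- libraries at 1, 3 and 12 weeks and 8, 28 and 43 in the Il10rb-/- libraries. All 12 MΦ markers were detected in every library, but at 12 weeks 4 of them were over 3-fold lower in Il10rb-/- than in Il10rb+/- MΦs: Cx3cr1 at 906 against 8074 normalized counts, Adgre1 at 3800 against 16537, C1qa at 7106 against 29971 and C1qb at 14925 against 51831. The 5 genes peaked in that same library. Markers of other cells differed between libraries, most of all at 12 weeks: the summed level of 8 neutrophil markers was between 1443 and 2150 normalized counts in the 5 other libraries and 11930 in 12-week Il10rb-/-, and that of 9 listed B and plasma cell markers was between 797.6 and 2450 in the libraries of 1 and 3 weeks, 18363 in 12-week Il10rb+/- and 2027 in 12-week Il10rb-/-. Of the neutrophil sums, Csf3r alone was 1420 of 1501 in 12-week Il10rb+/- and 6944 of 11930 in 12-week Il10rb-/-. In the same libraries S100a9 was at 33.6 and 2906 and S100a8 at 12.8 and 1673. The listed neutrophil genes Ngp and Camp were at 0 reads in all libraries but 12-week Il10rb-/-, where they had 282 and 23. Mpo of the same list had 24 reads in 12-week Il10rb+/- and 25 in 12-week Il10rb-/-. Summed dendritic cell markers, mostly Ccr7, were at 10831 in 12-week Il10rb+/- and 39828 in 12-week Il10rb-/-. Summed epithelial markers were higher in Il10rb-/- at 1 week (940.6 against 177.5) and 12 weeks (2174 against 600.4) and lower at 3 weeks (670.9 against 1117). Summed fibroblast markers were higher in Il10rb-/- at 1 week (1140 against 158.6), close at 3 weeks (2930 against 2808) and lower at 12 weeks (326.7 against 3927). Summed T cell markers were lower in Il10rb-/- at 12 weeks (1032 against 2659), though 3 of the 5 past the minimum were higher. Most of the larger sum was Cd4 at 1712 and Cd2 at 748, which were at 210 and 175 in Il10rb-/-. The 3 higher ones were Lck (303 against 108), Cd3g (154 against 26) and Cd3e (93 against 39.7). Cd3d, Cd8a and Thy1, under the minimum, were also higher in Il10rb-/- at 12 weeks. The summed level of 6 monocyte markers ranged from 5056 to 34736 over the libraries with no common direction between genotypes. Of the 6 markers, 2 were higher in Il10rb-/- at 1 week, 3 at 3 weeks and 5 at 12 weeks. Plac8 was at 263, 513.5 and 1515 in Il10rb+/- and 341.5, 1706 and 14515 in Il10rb-/- at the 3 ages. Ly6c2, whose protein the sort gated against, had 6, 4 and 303 reads in Il10rb+/- and 3, 324 and 4100 in Il10rb-/-. F13a1 was lower in Il10rb-/- at all 3 ages, with 9349 against 1039 normalized counts at 12 weeks. Kit, of the mast cell list, was at 114 and 490 in Il10rb+/- and 541 and 2554 in Il10rb-/- at 3 and 12 weeks. Siglecf of that list was at 87.6 and 122 in Il10rb+/- and 105.5 and 29.3 in Il10rb-/-. These genes were picked from the marker lists after their values were seen. The part of such cells in the values of the 5 genes was not tested. In sorted bulk RNA, more cells of a type and more RNA per cell cannot be told apart.

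Rab11fip1, the recycling adaptor, was well detected in all 6 libraries, with 439 to 20961 reads. Its level was 509, 1068 and 3778 normalized counts in Il10rb+/- MΦs at 1, 3 and 12 weeks and 1432, 2621 and 13347 in Il10rb-/- MΦs. The levels were higher at each later age in both genotypes, and each Il10rb-/- library stood above the Il10rb+/- library of its age. The groups overlapped across ages, since the 12-week Il10rb+/- library stood above the Il10rb-/- libraries of 1 and 3 weeks. The log2 ratio of Il10rb-/- over Il10rb+/- was 1.49 at 1 week (95% counting interval 1.34 to 1.65), 1.29 at 3 weeks (1.15 to 1.44) and 1.82 at 12 weeks (1.78 to 1.86). The bounds were carried over from the Clopper-Pearson limits (exact binomial) on the fraction of a gene's reads that came from 1 library. They cover counting error only, since amplified reads are not independent molecules and the difference between mice was not sampled. All 6 libraries could be put in order, as no neighbouring pair had a counting interval that included 0.

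Ramp3, the escort of the adrenomedullin receptor, was a low gene in young MΦs of both genotypes. It had 46.6, 41.4 and 511 normalized counts in Il10rb+/- MΦs at 1, 3 and 12 weeks, from 47, 17 and 1081 reads, and 138, 230 and 2119 in Il10rb-/- MΦs, from 92, 262 and 3328 reads. The 12-week libraries stood far above the others, and the control at 12 weeks exceeded the Il10rb-/- libraries of 1 and 3 weeks. The log2 ratio between genotypes was 1.56 (1.04 to 2.10), 2.48 (1.77 to 3.28) and 2.05 (1.95 to 2.15) at 1, 3 and 12 weeks. The Il10rb+/- libraries of 1 and 3 weeks were not apart by counting error, with a log2 difference of 0.17 (-0.66 to 1.07).

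Lmo4, the LIM-domain adaptor, had the most even ratio of the 5. Its level was 312, 735 and 1527 normalized counts in Il10rb+/- MΦs at the 3 ages and 722, 1503 and 3174 in Il10rb-/- MΦs. The Il10rb-/- level of each age was close to the Il10rb+/- level of the next, with log2 differences of 0.03 (-0.19 to 0.24) between 1-week Il10rb-/- and 3-week Il10rb+/- and of 0.02 (-0.06 to 0.11) between 3-week Il10rb-/- and 12-week Il10rb+/-. The log2 ratio between genotypes was 1.21 (1.00 to 1.42), 1.03 (0.85 to 1.21) and 1.06 (0.99 to 1.12), that is 2.31-fold, 2.05-fold and 2.08-fold.

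Ell2, the elongation factor, had 492, 309 and 1662 normalized counts in Il10rb+/- MΦs and 971, 976 and 6245 in Il10rb-/- MΦs at 1, 3 and 12 weeks. It was the gene whose control level was lowest at 3 weeks beyond counting error, while the Il10rb-/- libraries of 1 and 3 weeks were not apart (log2 difference 0.01, -0.13 to 0.15). The log2 ratio between genotypes was 0.98 (0.81 to 1.15), 1.66 (1.39 to 1.94) and 1.91 (1.85 to 1.97), and the counting intervals of the 1-week and the 12-week ratio did not overlap. At 1 week it was the 1 member under 2-fold, at 1.97-fold. Ell2 is abundant in plasma cells. Of the 8 B and plasma cell markers past the minimum, 7 were lower in Il10rb-/- than in Il10rb+/- libraries at all 3 ages. The exception was Jchain, with 0 and 4 reads in Il10rb+/- and Il10rb-/- at 1 week and 46.2 and 207.5 normalized counts at 3 weeks. In Il10rb+/- the summed level of the listed markers was 1202 at 3 weeks and 18363 at 12 weeks, beside 309 and 1662 for Ell2. The part of plasma cells in the Ell2 values was not tested.

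Upp1, the uridine phosphorylase, was close to absent in young MΦs and had the widest range. It had 0, 2 and 213 reads in Il10rb+/- MΦs and 5, 45 and 4358 reads in Il10rb-/- MΦs at 1, 3 and 12 weeks. In normalized counts these were 4.87 and 100.7 in the Il10rb+/- libraries of 3 and 12 weeks and 7.49, 39.6 and 2775 in the 3 Il10rb-/- libraries, while for the 0 reads at 1 week the exact 95% Poisson upper limit is 3.66. At 12 weeks the ratio was 27.6-fold, a log2 ratio of 4.78 (4.59 to 4.99). At 3 weeks it was 3.02 on the log2 scale with a wide interval of 1.09 to 6.11, and at 1 week, taken against a floor of 3 reads in the Il10rb+/- library, the level was at least 2.52-fold higher. That bound holds no counting error of the 5 Il10rb-/- reads: the counting interval of the log2 ratio begins at 0.47, and a pseudocount of 10 gives 0.67, so a 2-fold difference of Upp1 at 1 week is not shown by these counts. The 3 lowest libraries (1-week and 3-week Il10rb+/- and 1-week Il10rb-/-) could not be put in order by their counts.

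**Figure D1:**
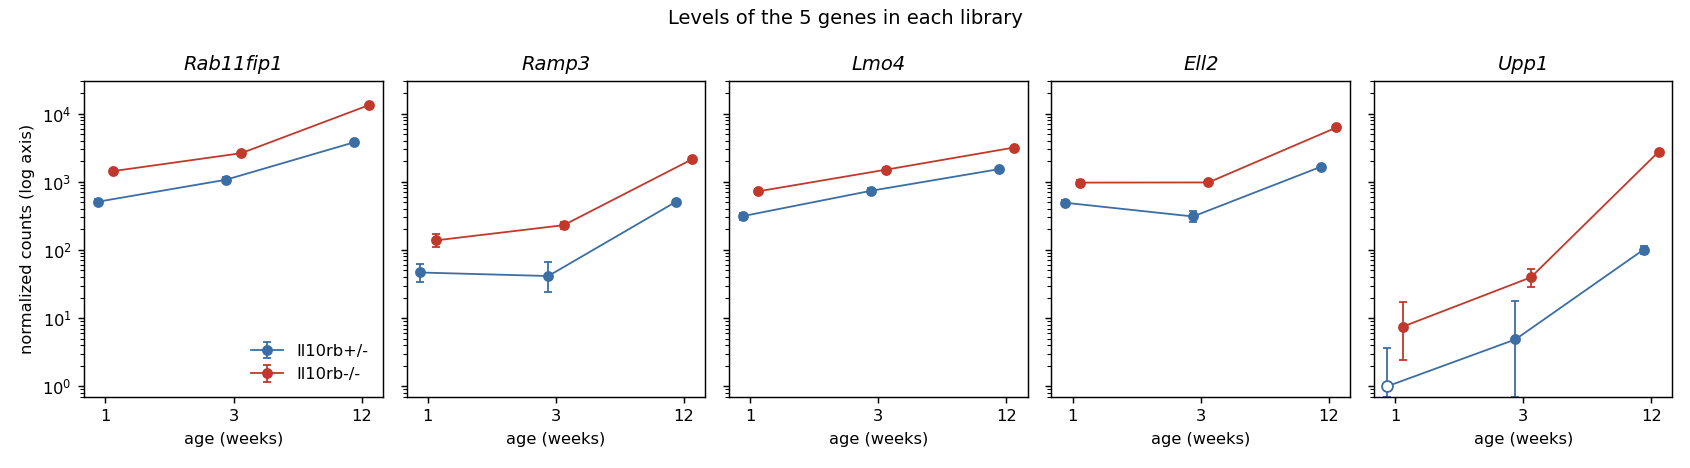
Normalized counts (log axis) of each gene against age in weeks (evenly spaced categories), for Il10rb+/- (blue) and Il10rb-/- (red) libraries, 1 library a point; bars are exact 95% Poisson intervals and cover counting error only, cut at the lower edge of the plot. The open circle is the 0 reads of Upp1 in the 1-week Il10rb+/- library, deposited as 1; the red point is above the blue at each age, and the highest point of every gene is 12-week Il10rb-/-.

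As a group, the genes were counted by point values, with Upp1 at 1 week at its bound, which holds no counting error. By this count 4, 5 and 5 of the 5 genes were at least 2-fold higher in Il10rb-/- MΦs at 1, 3 and 12 weeks. Of the 11067 genes past the minimum, 4.73%, 2.93% and 8.66% were. The median log2 ratio of the 5 was 1.33, 1.66 and 1.91 at the 3 ages with Upp1 at its bound at 1 week, and the median of all genes was -0.04, 0.02 and 0.04. Being higher in Il10rb-/- at all 3 ages was common, as 17.4% of genes were (1922 genes) and 17.2% were lower at all 3 ages. A 2-fold difference at all 3 ages was rare, at 0.542% of genes (60 genes). By point values 4 of the 5 genes had it, again with Upp1 by its bound. Within counting error it is not shown for Upp1 at 1 week, whose log2 interval begins at 0.47. Nor is it for Lmo4 at 3 weeks (0.85 to 1.21) and 12 weeks (0.99 to 1.12). With the total reads as scale Lmo4 was under 2-fold at 3 weeks (0.99) and 12 weeks (0.83). Since the 5 were chosen for exactly this, the shares describe the choice and nothing is read from them. The lowest log2 ratios nearest to 2-fold were those of Lmo4, at 1.03, and Ell2, at 0.98.

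**Figure D2:**
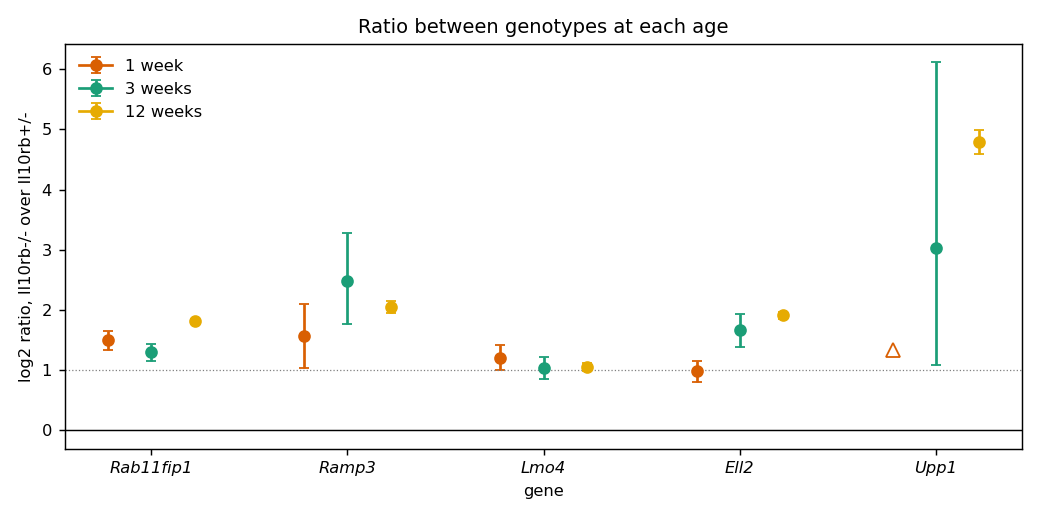
Log2 ratio of Il10rb-/- over Il10rb+/- normalized counts for each gene at 1, 3 and 12 weeks, 1 library of each genotype a ratio; bars are exact 95% counting intervals, the solid line is no difference and the dotted line 2-fold. The open triangle is Upp1 at 1 week against a floor of 3 reads in Il10rb+/- (2.52-fold), without counting error. The counting interval of that log2 ratio, not drawn, begins at 0.47. Lmo4 stayed between 1.03 and 1.21, while Upp1 reached 4.78 at 12 weeks.

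Across all genes, genotype was tested over the 3 ages with limma on log2(normalized count + 1), with age as a term and Benjamini-Hochberg adjustment. No gene passed an adjusted p of 0.05 (0% higher and 0% lower of 11067), and 853 had an unadjusted p under 0.05, of which 487 were higher in Il10rb-/-. The count depended on single libraries: without the 12-week Il10rb+/- library 65 genes were called higher and 9 lower, and without the 12-week Il10rb-/- library 52 and 11. Leaving out either 1-week library, 17 were higher and 1 lower, and without the 3-week Il10rb-/- library 0 and 1. For the 5 genes themselves no p is given, since this contrast chose them.

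Age was not used to choose the genes, and their levels differed between ages in both genotypes. From 3 to 12 weeks all 5 were higher in both genotypes. Ramp3 was 12.4-fold and 9.20-fold higher at 12 than at 3 weeks in Il10rb+/- and Il10rb-/- MΦs. Upp1 was 20.7-fold and 70.1-fold higher, the first of these from 2 reads at 3 weeks (log2 interval 2.5 to 7.43). By point values these were the largest differences among the 5 in each genotype. Ell2 was 5.38-fold and 6.40-fold higher, Rab11fip1 3.54-fold and 5.09-fold, and Lmo4 2.08-fold and 2.11-fold. The order of the 5 by point values of the fold was the same in both genotypes, with Upp1 and Ramp3 first and Lmo4 last. In Il10rb+/- the log2 interval of Upp1 overlaps those of Ramp3 (2.94 to 4.41) and Ell2 (2.17 to 2.69). The place of Upp1 in that order is thus not set by these counts.

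In the limma fit over both genotypes, none of these 12-week differences passed the threshold. The log2 differences were 3.40 for Ramp3 (adjusted p = 0.0613), 2.55 for Ell2 (adjusted p = 0.0830), 2.08 for Rab11fip1 (adjusted p = 0.0830), 5.11 for Upp1 (adjusted p = 0.114) and 1.07 for Lmo4 (adjusted p = 0.120), each higher in both genotypes. Among all genes, 0.0271% were called higher (3 genes) and 0% lower at 12 weeks, and 2261 had an unadjusted p under 0.05, of which 1246 were higher. The calls turned on single libraries. The error of the fit is the departure of the ages from a common genotype difference. The members were chosen for a genotype difference of the same direction at each age, which can make this error small. Every p of the members by age, and every call from it, can thus be low by the choice. Leaving out either 12-week library leaves 1 library at that age. The log2 differences of the members then ran from 1.03 (Lmo4) to 6.27 (Upp1) without the Il10rb+/- library. Without the Il10rb-/- library they ran from 1.10 (Lmo4) to 3.94 (Upp1). Leaving out either 1-week library, 4 of 5 were called, all but Lmo4, beside 0.614% and 0.904% of all genes.

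From 1 to 3 weeks the 5 genes parted. Lmo4 was higher at 3 weeks by 1.24 on the log2 scale in Il10rb+/- and by 1.06 in Il10rb-/- MΦs, and Rab11fip1 by 1.07 and 0.87. Ell2 and Ramp3 did not share this. Ell2 differed by -0.67 in the Il10rb+/- libraries and by 0.01 in the Il10rb-/- libraries, and Ramp3 differed by -0.17 and 0.74. Upp1 went from 0 to 2 reads in Il10rb+/- and was 5.28-fold higher in Il10rb-/- MΦs.

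In limma, the 3-week differences were 1.14 for Lmo4 (adjusted p = 0.166), 0.97 for Rab11fip1 (adjusted p = 0.274), 1.90 for Upp1 (adjusted p = 0.616), -0.33 for Ell2 (adjusted p = 0.798) and 0.28 for Ramp3 (adjusted p = 0.852), and none passed. Of all genes, 0.00904% were called higher (1 gene, Xdh) and 0.00904% lower (1 gene, Spint1), and 957 had an unadjusted p under 0.05. Without the 12-week Il10rb+/- library Lmo4, Rab11fip1 and Upp1 were called higher, and without the 12-week Il10rb-/- library Lmo4 and Rab11fip1, beside 6.55% and 6.65% of all genes.

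Per kilobase of annotated exon, which allows levels to be compared between genes, the order of the 5 differed between libraries. In 1-week Il10rb+/- MΦs Lmo4 was highest at 88.5 normalized counts per kilobase, followed by Ell2 at 50.04, Rab11fip1 at 47.1 and Ramp3 at 33.8, with no read of Upp1. In 12-week Il10rb+/- MΦs Lmo4 was still highest, at 432, followed by Ramp3 at 370, Rab11fip1 at 350, Ell2 at 169 and Upp1 at 51.4. In 12-week Il10rb-/- MΦs Ramp3 was highest at 1536, followed by Upp1 at 1415, Rab11fip1 at 1236, Lmo4 at 899 and Ell2 at 635. Lmo4 was thus highest and Upp1 lowest in the controls of 1 and 12 weeks, and neither held in the 12-week Il10rb-/- library. In that library all 5 stood between the percentiles 86.3 and 94.1 of the genes past the minimum on this scale, and in the 1-week control the 4 detected ones between 24.3 and 48.1.

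The close relatives and partners of the 5 genes were examined from a list for each pathway, and 0 of the listed genes past the minimum were at least 2-fold higher in Il10rb-/- at all 3 ages. By limma none of the listed genes was called between genotypes (at an unadjusted p under 0.05, 2 uridine genes were higher and 1 Rab11 gene lower). Of the 12 genes of the Rab11 and recycling endosome list past the minimum, 4 were higher and 5 lower in Il10rb-/- at all 3 ages. Of the other Rab11 family adaptors, 2 were lower and 1 higher in Il10rb-/- at 12 weeks: the control and Il10rb-/- levels were 1239 and 447 normalized counts for Rab11fip5, 145.6 and 44.6 for Rab11fip3, and 108 and 177 for Rab11fip4. Rab11fip2 was under the minimum with 34.1 to 47.9 in all libraries. The genes with the highest mean normalized count in a list (not scaled by length) are also given. Ehd1, an ATPase that remodels recycling endosomes, was at 6985 and 7043 at 1 week and 15254 and 16148 at 12 weeks, and Rab14 was at 5923 and 5471 and at 4005 and 3877.

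Of the 4 measured genes of the calcitonin receptor family list past the minimum, 0 were higher and 0 lower at all 3 ages. Calcrl, the receptor that Ramp3 escorts, was at 359, 355 and 483 normalized counts in Il10rb+/- and 286, 365 and 411 in Il10rb-/- MΦs, so the genotypes lay within a log2 difference of 0.33 at each age. Ramp1, which turns Calcrl into the receptor of calcitonin gene-related peptide, was at 367 and 218 at 12 weeks. Ramp2, which like Ramp3 makes an adrenomedullin receptor, had at most 9 reads in the libraries of 1 and 3 weeks and 322 and 56 reads at 12 weeks, in the opposite direction to Ramp3. Ramp2 is abundant in endothelial cells, and the summed endothelial markers went the same way at 12 weeks, from 5224 in Il10rb+/- to 914 in Il10rb-/-. Most of the first sum was Lyve1 at 3120 and Pecam1 at 1201, which were at 2.55 and 541 in Il10rb-/-. Of the 7 endothelial markers past the minimum, 0 were higher in Il10rb-/- at 12 weeks. The part of endothelial cells in the Ramp2 value was not tested.

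Of the 8 genes of the LMO list past the minimum, 1 was higher and 3 lower in Il10rb-/- at all 3 ages. Lmo2, a relative best known from blood cell development, was at 2493, 2239 and 1790 normalized counts in Il10rb+/- and 2178, 1998 and 1295 in Il10rb-/- MΦs, lower at each age where Lmo4 was higher. The cofactor Ldb1, which binds both, was also lower, at 926 and 653 at 12 weeks. Lmo1 was under the minimum, Lmo3 was not analysed here, and Ssbp4, a partner of Ldb1, was at 1284 and 1072 at 12 weeks. The gene that was higher at all 3 ages was Rbbp8, a DNA repair factor that can bind Lmo4, with log2 ratios of 0.01, 0.72 and 1.19. Rbbp8 and Ldb1 were singled out after their values were seen, as were Xdh and Spint1 above.

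Of the 15 genes of the elongation complex list, 1 was higher and 2 lower at all 3 ages. Ell, the nearest relative of Ell2, was at 599, 689 and 642 normalized counts in Il10rb+/- and 598, 782 and 1260 in Il10rb-/- MΦs, so it differed by 0.97 on the log2 scale at 12 weeks and by 0.18 or less before. Ell3 was not analysed here. Cdk9, the kinase of the complex, and the scaffold Aff4 had the highest mean normalized counts, at 2148 and 2482 and at 1777 and 2253 at 12 weeks.

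Of the 15 genes of the uridine and pyrimidine list, 2 were higher and 1 lower at all 3 ages, and these 2 were singled out after their values were seen. Uck2, the kinase that phosphorylates uridine in salvage, was at 433, 973 and 1673 normalized counts in Il10rb+/- and 881, 1314 and 6063 in Il10rb-/- MΦs (limma log2 difference 1.10, adjusted p = 0.627). Dpys, dihydropyrimidinase, which acts on the breakdown products of uracil, was at 205, 141 and 505 in Il10rb+/- and 467, 315 and 956 in Il10rb-/- MΦs (1.09, adjusted p = 0.519). Each was higher in 3 of 3 ages. Dpys was the 1 listed gene called when either 12-week library was left out (1.17, adjusted p = 0.0221 and 0.0347), and none was called under any other choice tried. Upp2, the other uridine phosphorylase, was under the minimum, with 9.55 to 37.4 normalized counts. The nucleoside transporters Slc29a3 and Slc29a1 had the highest mean normalized counts of the list, and Slc29a1 was at 2491 and 1085 at 12 weeks.

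**Figure D3:**
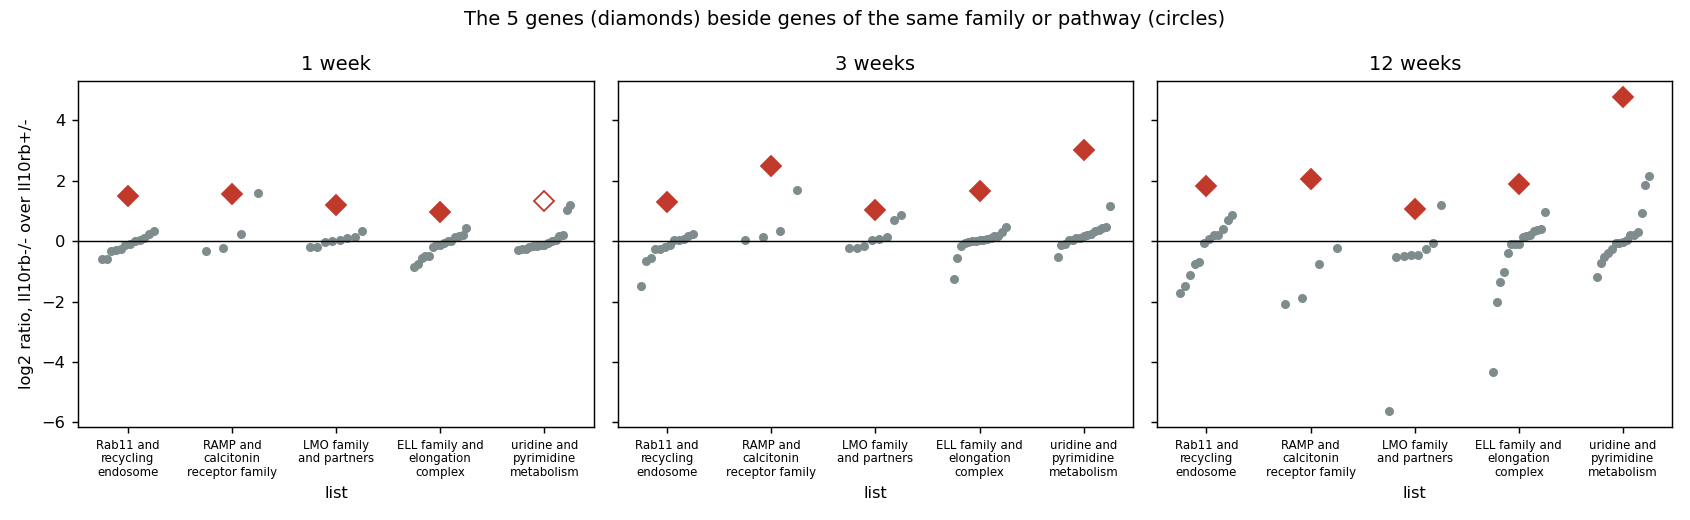
Log2 ratio of Il10rb-/- over Il10rb+/- normalized counts at 1, 3 and 12 weeks for each of the 5 genes (red diamonds, from left to right Rab11fip1, Ramp3, Lmo4, Ell2 and Upp1) and for the listed genes of the same family or pathway past the minimum (grey circles, sorted within a list; 0 reads drawn at 1). The open diamond is Upp1 at 1 week against a floor of 3 reads in Il10rb+/-, without counting error. The low circle of the LMO list at 12 weeks is Brca1 with 0 reads in Il10rb-/-. Each diamond, chosen for being high, is above every circle of its list except in the following cases. At 1 week Ramp2 (0 against 2 reads) is just above Ramp3, and at 12 weeks Rbbp8 (1.19) is above Lmo4 (1.06).

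Over the 6 libraries the 5 genes had alike profiles on the log2(normalized count + 1) scale, which share the libraries and the higher level at 12 weeks. The choice of all 5 for a higher level in Il10rb-/- at each age fixed part of this likeness. Pearson's r between members was between 0.83 (Lmo4 and Ell2) and 0.99 (Rab11fip1 and Upp1), over 6 libraries, as a description. For that pair 18 other genes were more like Rab11fip1 than Upp1 was, and for Lmo4 and Ell2 1215 other genes were more like Lmo4. The 3 genes most like Rab11fip1 were Rab44 (0.996), a large Rab GTPase, Clec4e (0.995), the lectin receptor Mincle, and Plaur (0.994), the urokinase receptor. Clec4e was at 847, 2847 and 9388 normalized counts in Il10rb+/- and 3005, 6463 and 57621 in Il10rb-/- MΦs.

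The genes most like Ramp3 were Nt5dc3 (0.997), Cd80 (0.996), a costimulatory ligand for T cells, and Coq10b (0.996). Those most like Lmo4 were Il1rn (0.996), which encodes the interleukin-1 receptor antagonist, Anxa4 (0.994) and Fam160a2 (0.993). Il1rn went from 5510 in 1-week Il10rb+/- to 165484 in 12-week Il10rb-/- MΦs. For Ell2 they were Slc15a3 (0.997), a lysosomal transporter of histidine and peptides, Slc3a2 (0.996), a subunit of amino acid transporters, and Wsb2 (0.995). For Upp1, whose 0 reads entered as the deposited 1, they were Yipf1 (0.999), Txn1 (0.997), which encodes thioredoxin, and Cytip (0.996). An alike profile says nothing of the size of the change: Yipf1 ran only from 583 to 863 normalized counts, where Upp1 ran from 0 reads to 2775.

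**Figure D4:**
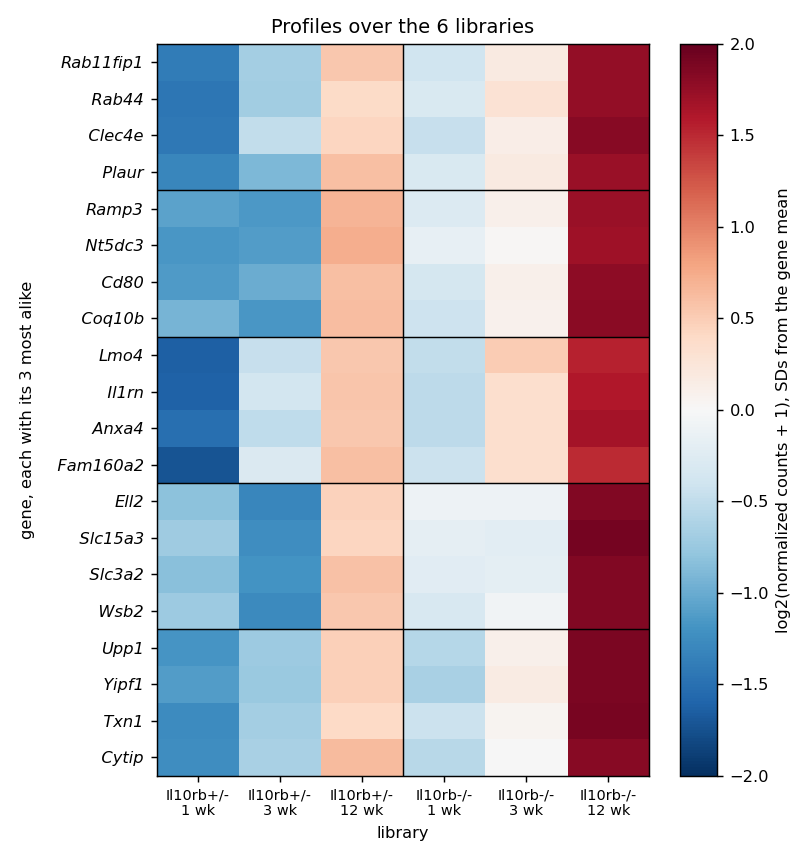
Profile of each of the 5 genes and of its 3 most alike genes over the 6 libraries, as log2(normalized counts + 1) in SDs from the mean of the gene (colour), with Il10rb+/- libraries at the left and Il10rb-/- at the right, each in order of age. All 20 profiles peak in 12-week Il10rb-/-. By point values, among the 5 genes themselves Ell2 and Ramp3 are lowest in 3-week Il10rb+/-, while Rab11fip1, Lmo4 and Upp1 are lowest in 1-week Il10rb+/-. For Ramp3 and Upp1 the lowest library is not apart from the next by counting error.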

How the data were processed

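MΦs from Il10rb-/- and Il10rb+/- mice were sequenced in 6 libraries, 1 per genotype and age, grouped by their labels. The deposited signal is normalized counts per gene: the authors used TopHat for alignment of the single-end reads (mm10) and HTSeq for counting, divided by DESeq size factors and showed a count of 0 as 1. Versions, gene annotation and strand setting are not given in the sources used here. Every other value (100%, within 0.02 read) was a whole multiple of 1 step per library, so reads were read back from the deposited values for counting intervals. The depths of 6700337 to 40754971 reads limit low genes: a floor of 3 reads equals 1.42 to 7.30 normalized counts.

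Ratios were taken on normalized counts. Tests used limma 3.58.1 (R 4.3.3) on log2(value + 1) with genotype and age as terms, an empirical Bayes trend and Benjamini-Hochberg adjustment over 11067 genes at or over 50 in at least 1 library. The fit has no replicates: its error is the departure of the ages from a common genotype difference. The code of the fit was checked on simulated data with known differences, which does not make up for the missing replicates. Figures used matplotlib 3.10.9.

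The 5 genes and all lists were chosen with earlier results of these data known. Named genes are these 5, Il10rb, their closest relatives, the 2 most abundant genes of each list, any listed gene called, and the 3 genes with the highest Pearson r to each member. Alternatives were a pseudocount of 10, no minimum, TMM or total-read scaling and leaving out each library.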

Additional observations from a re-analysis of the deposited data

Results flagged for a closer look

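Between 1 and 3 weeks, 2 of the genes had point values of opposite direction in the genotypes, 1 library each, and this difference was not tested. Ramp3 differed by -0.17 on the log2 scale in Il10rb+/- (counting interval -1.07 to 0.66) and by 0.74 in Il10rb-/- MΦs (0.39 to 1.10), so the change in Il10rb-/- minus that in Il10rb+/- was 0.91. Ell2 differed by -0.67 in Il10rb+/- (-0.96 to -0.39) and by 0.01 in Il10rb-/- MΦs (-0.13 to 0.15), a difference between the changes of 0.68. For each gene the interval of 1 genotype includes 0.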

How the results depend on the processing

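All 5 genes were higher in Il10rb-/- at each age under a pseudocount of 10, TMM scaling and total-read scaling. Of 45 single ratios recomputed this way, 40 moved by less than their counting error and 5 by more, all of them at 12 weeks under total-read scaling. With a pseudocount of 10, Upp1 went from 2.90 to 0.67 at 1 week and from 3.02 to 1.74 at 3 weeks, within its wide interval. The median log2 ratio, 1.49 at 1 week with 0 reads shown as 1, was 1.18 with a pseudocount of 10, and that of 1.91 at 12 weeks was 1.69 under total-read scaling, which moved the median of all genes at 12 weeks from 0.04 to -0.19.

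For the tests across all genes, a pseudocount of 10 gave 1 gene lower between genotypes, 7 higher at 3 than at 1 week, and 7 higher and 1 lower at 12 than at 3 weeks, and called Ramp3 at 12 weeks (adjusted p = 0.0474). Total-read scaling called 0 higher at 12 weeks, where 2993 had an unadjusted p under 0.05 in limma (545 higher, against 1246 of 2261 as deposited), and all 5 members were higher at 12 weeks under it too. Leaving out each library in turn gave 0 to 65 genes higher and 0 to 11 lower between genotypes, 0 to 736 higher and 1 to 280 lower at 3 against 1 week, and 1 to 1560 higher and 0 to 1564 lower at 12 against 3 weeks, with 0 to 1 listed partner gene called. With 1 library of an age left out, the other is assumed to vary like the rest. The sign turned for Ramp3 and Ell2 at 3 against 1 week: leaving out single libraries gave -0.068 to 0.64 for Ramp3, below 0 without the 1-week or the 3-week Il10rb-/- library, and -0.73 to 0.071 for Ell2, above 0 without the 1-week Il10rb+/- library. The cause was not tested.

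A count model on the read-back counts was not run. Age as a term sets the genotypes against each other within an age. A further pairing by replicate number could not be made, because each genotype and age has 1 library. Depth limits Upp1 before 12 weeks and Ramp3 in the 3-week Il10rb+/- library (17 reads).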
